A study of Mus musculus with 3 samples.

Results

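Lymphatic endothelial cells (LEC) line the lymph vessels and, in the villus, the lacteal that takes up dietary fat. Among 17975 such cells sequenced singly from the mouse small intestine, the cells with the least and the cells with the most RNA of immediate-early genes were set against each other. The study dissociated the intestine without its duodenum and sorted live cells lacking CD45 and carrying CD31 and PDPN, for 3 droplet libraries of wild-type C57BL/6 females aged 9 to 10 weeks. In every sample the epithelium was stripped for 15 to 20 min and the tissue digested for 60 min at 37 °C. The labels describe each intestinal sample as coming from 4 females, give no treatment, and do not say whether the libraries shared animals or a sort, so p-values measure only the spread between these libraries. Every group in the comparison was therefore of 1 genotype and 1 condition, and the ends of the score came from the same libraries. LEC were chosen by UMIs (unique molecular identifiers, each standing for 1 captured RNA molecule), with at least 1 of Prox1, at least 5 of Lyve1, none of Ptprc or Epcam and at most 2 of Dcn. In each LEC the score was the share of all UMIs that came from 7 genes (Fos, Fosb, Jun, Junb, Egr1, Ier2 and Atf3). The lowest 20% and the highest 20% of LEC by score were taken in each library, which gave 1114, 890 and 1590 cells at each end in libraries 1, 2 and 3, or 3594 cells per end out of 17975 LEC and 22534 cells of all kinds that passed filters.

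Immediate-early genes are switched on within minutes of a stimulus by factors that are already present in the cell, with no need for new protein. Growth factors, cytokines, shear, calcium and the handling of tissue can all trigger them. Their products include the FOS, JUN and ATF3 members of the AP-1 family of transcription factors and the EGR1 zinc finger factor, and most of their RNAs are short-lived. In dissociated tissue such RNA cannot be assigned to a time before or after the tissue was taken, and these libraries held no condition that separates the times.

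The libraries held 58857545, 69231794 and 74571090 UMIs, and LEC made up 87.6%, 66.4% and 83.98% of the filtered cells. Any pair of libraries shared 13 to 30 cell barcodes. Library 2 stood apart, with fewer LEC and with more RNA of epithelial cells and immunoglobulin genes in its LEC than the others. Its 14 epithelial markers summed to 298 to 339 CPM at the ends, on the scale given below, against 49.2 to 151 in libraries 1 and 3. Lymphatic genes were expressed at both ends of the score. Of 23 tested genes of lymphatic identity, given further below, 5 were lower at the high end and 1 was higher. Flt4, Nrp2 and Reln, which are lymphatic genes that the choice of cells did not use, had mean levels of 1557 to 1659, 1465 to 1458 and 2024 to 1863 CPM from the low to the high end. Levels are given as normalised CPM, the usual depth-scaled count, with the total taken over UMIs outside the score and scaled by trimmed-mean (TMM) factors. Fold changes are the high end over the low end on the log2 scale. The ± is a standard error derived from the F statistic of the edgeR test described below. It is not the spread of the 3 libraries' own fold changes, which can be wider. Summing cells left 5713762 to 11979129 UMIs per library and end.

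The score spread over a wide range and gathered most densely near 0. Its median over all LEC was 2.38%, 1.38% and 2.08% in libraries 1, 2 and 3. At the low end the median was 0.111%, 0.0477% and 0.0599%, and at the high end 4.39%, 3.83% and 4.65%. The low end thus held a median of 7, 3 and 3 UMIs of the 7 genes per cell, and the high end 378, 298 and 335. LEC under 0.5% made up 19.6%, 33.5% and 26.0% of the libraries, and LEC over 3% made up 37.0%, 21.6% and 33.2%. The lower limit ran through the dense part of the distribution near 0 in libraries 2 and 3. In library 1 the limit lay above that part, where cells were fewer, so its place differed between libraries. The last cell inside the low end was at 0.526%, 0.119% and 0.216%, and the first cell outside it at 0.528%, 0.119% and 0.217%. The first cell inside the high end was at 3.743%, 3.079% and 3.803%, and the next cells outside it at 3.741%, 3.079% and 3.803%. Immune cells of the same libraries, which had at least 2 UMIs of Ptprc and none of Prox1 or Epcam, had a median score of 0.468%, 0.3604% and 0.4999% (31, 160 and 108 cells). These medians lay below the medians of all LEC in the same libraries. The ends of the LEC were cut on this score, so they are no measure for the immune cells.

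**Figure D1:**
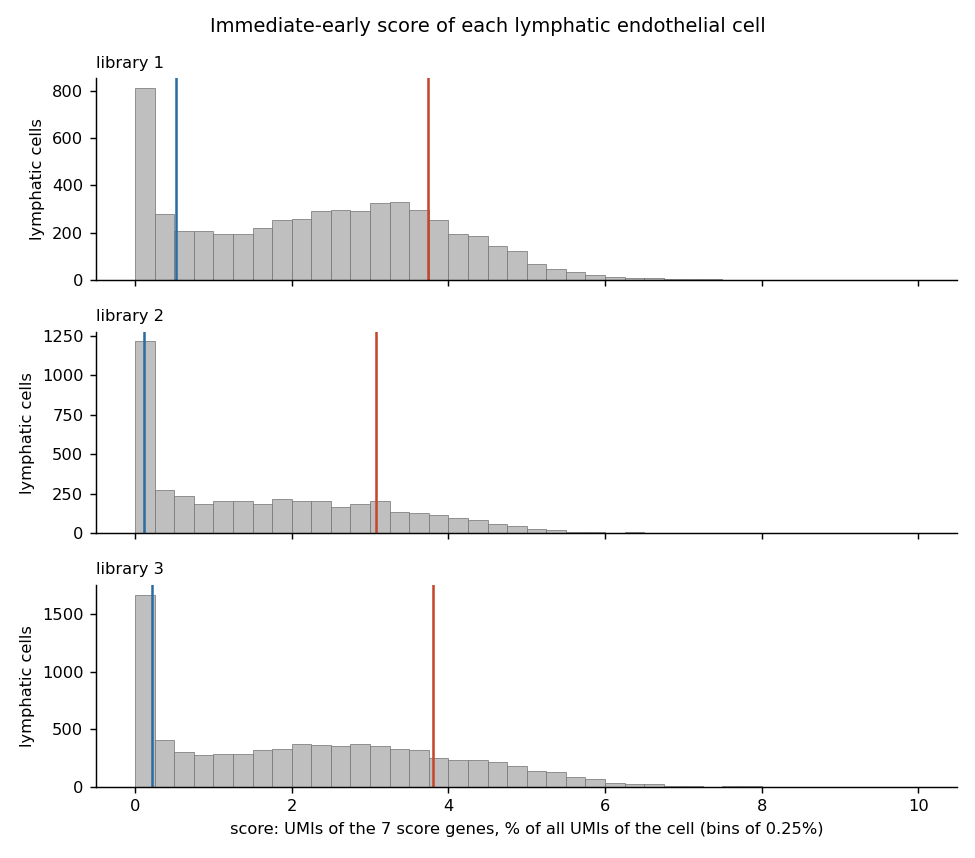
Number of lymphatic endothelial cells (vertical axis) by score, the percentage of a cell's UMIs from the 7 score genes (horizontal axis, bins of 0.25%), in each of the 3 libraries. Vertical lines mark the limit of the lowest 20% (blue) and of the highest 20% (red), and the first bin is the tallest in every library.

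The 7 score genes chose the cells, so their levels are a description without a test. Fos was at 348, 58.96 and 116 CPM at the low end and at 11552, 11248 and 13587 CPM at the high end. Egr1 was at 209, 45.7 and 78.6 and 9749.7, 8405 and 10849 CPM, and Atf3 at 64.7, 29.2 and 40.9 and 4130.04, 4573 and 5620.3 CPM. Ier2, a short early gene of unsettled function, was the least abundant of the 7 at the high end, at 1971, 1990.4 and 2531 CPM. Each of the 7 genes was ordered over all 5 quintiles of the score in all 3 libraries. Pairs of the 7 genes rose together from cell to cell, with a median Spearman correlation of 0.64, 0.72 and 0.71 over cells thinned to 3000 UMIs, which share the library and the depth. The UMIs of each cell were also split at random, and the cells were ranked on 1 part only. In the other part Fos was 26.2, 127 and 89.9 times higher at the high end, and Jun 16.6, 30.4 and 34.05 times. Both parts came from the same cells and the same score genes, so these folds are a description too and no independent support.

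Cells of the high end were deeper. Their median was 8547, 7502 and 7119 UMIs, against 7061, 6204 and 5943 at the low end. Detected genes were a median of 2953, 2618 and 2495 against 2830, 2505 and 2450. The mitochondrial share of UMIs was lower at the high end, with medians of 1.74%, 1.57% and 1.67% against 2.23%, 1.96% and 2.05%. With 3 libraries no exact test of such pairs can fall below p = 0.25, so these are given as values. When the ends were taken within 10 bins of equal depth, 2470 genes were called higher and 1941 lower, close to the counts below, but some of the largest differences were smaller. The log2 fold change of Cxcl2 was then 5.99 in place of 7.79, that of Egr4 7.21 in place of 8.48, that of Cxcl1 4.90 in place of 6.12 and that of Zfp36 4.78 in place of 5.65. Of the 106 named genes tested, 11 moved nearer to 0 by over 1.5 times in this setting and 3 lost their call. With 30% of cells from each end 28 moved nearer to 0 by as much, and with 10% 22 moved farther from it.

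Beyond the score, many genes differed between the ends. The 7 score genes and the 5 genes of the LEC choice were left out, and 11835 genes were tested with edgeR's quasi-likelihood test, with the library as a block and Benjamini-Hochberg adjustment over all 11835. At an adjusted p of at most 0.05, 2436 genes were higher at the high end, which is 20.6% of those tested, and 1900 were lower, which is 16.1%. A log2 difference of at least 0.5 as well was reached by 1262 higher genes (10.7%) and 604 lower genes (5.1%). The largest differences were mostly upward, with 119 genes higher by at least 3 on the log2 scale and 53 lower by as much. The same sign in all 3 libraries was seen for 4292 of the 4336 called genes. The split between higher and lower rested on the scaling. Without TMM factors every gene moved by about -0.23 on the log2 scale, and 1277 genes were higher and 5149 lower, so that the share of calls that were higher went from 56.2% to 19.9%. In that setting 10.8% of all tested genes were higher and 43.5% lower, the shares against which counts without TMM factors stand. With DESeq2 in place of edgeR the shares were 12.2% and 6%. Without library 1, 2 or 3, 18.6%, 17.2% and 17.8% of tested genes were higher, and 15.3%, 11.6% and 12.5% lower. Differences below are relative to TMM scaling. A gene called higher by less than about 0.23 changes sign without TMM factors, and one called higher by more can still lose its call. The 1262 genes together held 7.42%, 6.48% and 6.67% of UMIs at the low end and 18.1%, 16.5% and 17.6% at the high end. They were chosen for being higher in these same sums, so the direction of that difference follows from the choice.

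**Figure D2:**
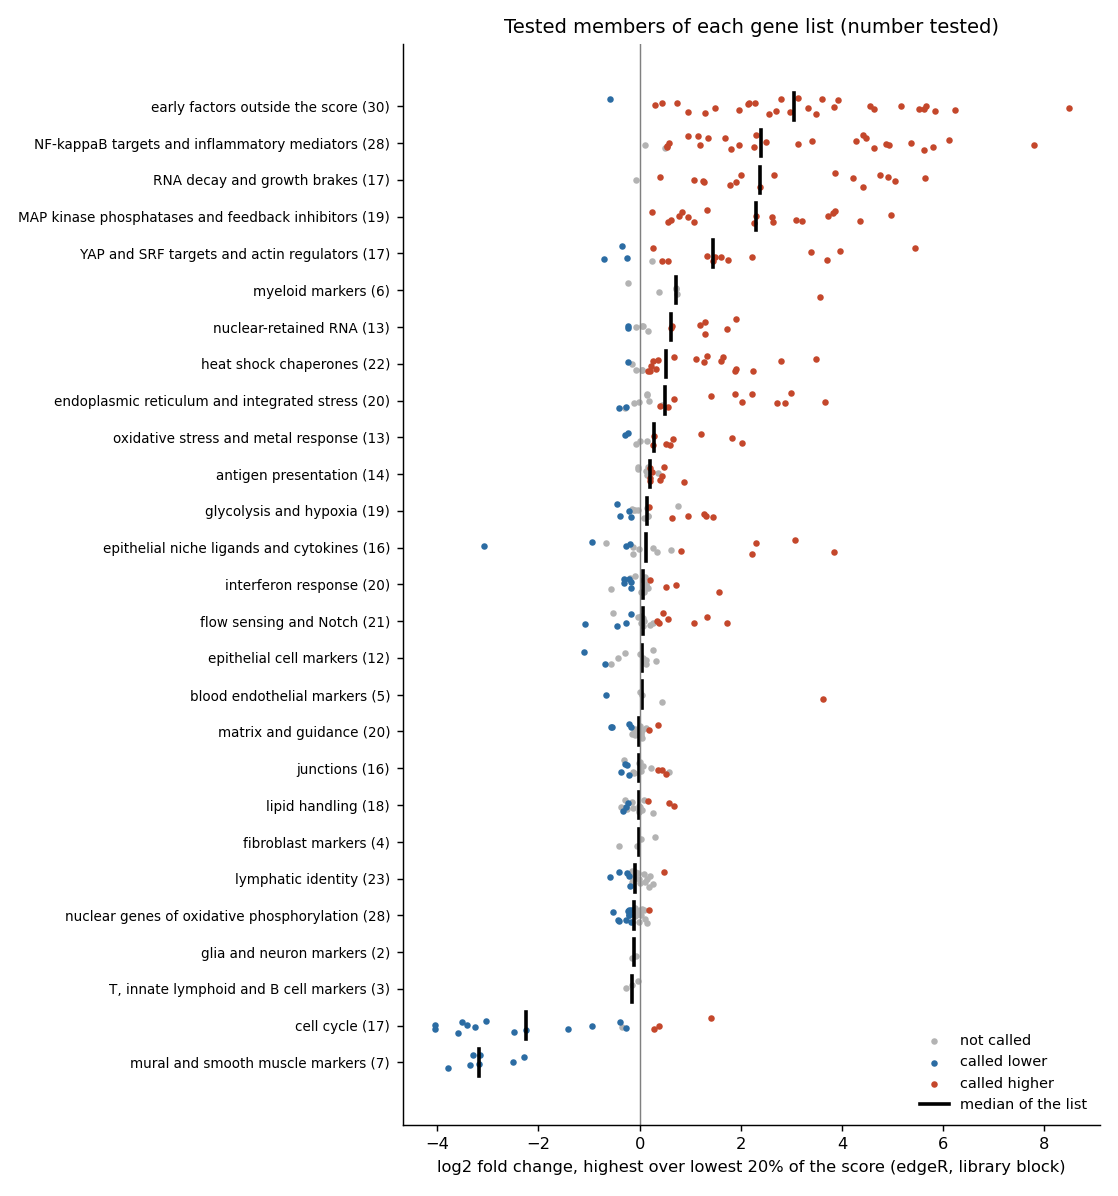
Log2 fold change of the highest over the lowest 20% of cells (horizontal axis) for every tested member of 27 gene lists (rows, number tested in brackets), with points coloured by call and a black bar at the list's median. The top 4 lists have medians of 2.31 to 3.05, and the lists of cell cycle and mural genes have medians of -2.24 and -3.17. Without TMM factors all points lie about 0.23 further left.

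Transcription factors of the early response that the score did not include were higher at the high end almost without exception. Of 30 listed factors, all were tested, 29 were higher and 1 was lower, with a median log2 fold change of 3.05, beside -0.0045 over all tested genes. Egr4, a zinc finger factor of the EGR family, was nearly absent at the low end, with 1, 1 and 3 UMIs in libraries 1, 2 and 3, and had 731, 318 and 827 UMIs at the high end. Its level there was 78.9, 51.03 and 81.3 CPM, and its log2 fold change was the largest of all tested genes (log2 fold change 8.48 ± 0.18, edgeR adjusted p = 3.87e-13). Nr4a1, an orphan nuclear receptor (chromosome 15, 101254269 to 101274795, plus strand in GRCm38), was at 14.8, 5.42 and 6.82 CPM at the low end and 407, 379 and 459 CPM at the high end (log2 fold change 5.53 ± 0.17, edgeR adjusted p = 8.03e-12). The ends of Nr4a1 did not overlap, and each quintile of the score was above the one before it in every library. The share of all tested genes with separated ends was not counted. Here and below, such separation only describes the named genes, many of which were named for large differences. Its relatives Nr4a2 and Nr4a3 had log2 fold changes of 5.17 and 6.22, Nr4a3 from 9, 2 and 5 UMIs at the low end.

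Krüppel-like factors, which endothelial cells also switch on under laminar flow, were expressed at both ends and differed by less. Klf2 was at 269.6, 169 and 162 CPM at the low end and 3475, 2151 and 3315 CPM at the high end (log2 fold change 3.93 ± 0.12, edgeR adjusted p = 8.70e-12). Klf4 went from 330.3, 209.9 and 222 to 3118, 2136 and 3074 CPM (log2 fold change 3.48 ± 0.10, edgeR adjusted p = 5.57e-12). Library 2 had the lowest Klf2 and Klf4 of the 3 at the high end. Klf6 had a log2 fold change of 2.16 and Klf10 of 0.74. Csrnp1, a nuclear protein of the AXIN1-induced family, went from 5.12, 3.61 and 3.03 to 196, 223 and 247 CPM (log2 fold change 5.84 ± 0.13, edgeR adjusted p = 3.87e-13). AP-1 genes outside the score followed, with Fosl1 at 5.61 and Fosl2 at 3.61 on the log2 scale, and with Jund, which many cells express constantly, rising from 499 to 4206 CPM on average. Hes1, a Notch target and repressor, had a log2 fold change of 2.98, Irf1 of 2.69 and Myc of 2.29. Id1, an inhibitor of basic helix-loop-helix factors and a target of BMP signalling, was the exception, at 34.7, 48.3 and 33.8 CPM at the low end and 22.2, 24.4 and 27.4 CPM at the high end (log2 fold change -0.59 ± 0.11, edgeR adjusted p = 7.24e-04). Its relative Id3 was called higher, with a log2 fold change of 0.29.

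**Figure D3:**
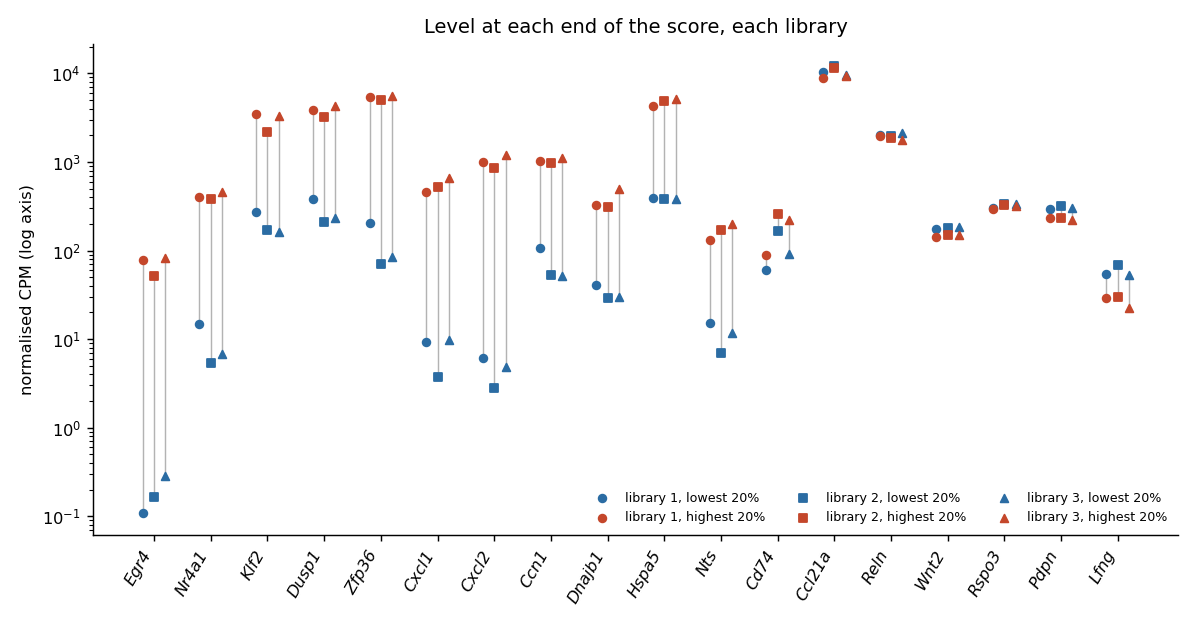
Normalised CPM (vertical log axis) of 18 genes at the lowest 20% (blue) and the highest 20% (red) of the score in libraries 1 (circles), 2 (squares) and 3 (triangles), with a line joining the ends of each library. The ends lie far apart for the genes from Egr4 to Nts and close together or reversed for Ccl21a, Reln, Wnt2, Rspo3, Pdpn and Lfng.

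Genes that switch signalling off again were higher as well. Of 20 listed MAP kinase phosphatases and feedback inhibitors, 19 were tested and all 19 were higher, with a median log2 fold change of 2.31. Dusp1, a nuclear phosphatase that inactivates p38, JNK and ERK, was at 385, 211 and 235 CPM at the low end and 3810.3, 3175 and 4287 CPM at the high end (log2 fold change 3.82 ± 0.13, edgeR adjusted p = 2.99e-11). Dusp5, which acts on ERK in the nucleus, went from 18.4, 8.21 and 8.71 to 407, 339 and 348 CPM (log2 fold change 4.98 ± 0.13, edgeR adjusted p = 1.47e-12). Socs3, the feedback inhibitor of cytokine receptors that signal through STAT3, went from 61.6, 30.9 and 36.4 to 744, 992 and 868 CPM (log2 fold change 4.35 ± 0.18, edgeR adjusted p = 1.98e-10). No library overlapped between the ends for these 3 genes. Sprouty and SPRED genes, which restrain receptor tyrosine kinases, differed less, with log2 fold changes of 3.08 for Spry4, 1.33 for Spry1 and 0.63 for Spred2. Dusp6, the cytoplasmic ERK phosphatase, had a log2 fold change of 0.57, from 128 to 188 CPM.

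Genes that destroy RNA or halt growth formed the next group, with 16 of 17 higher, 0 lower and a median of 2.38. Zfp36 encodes tristetraprolin, which binds AU-rich elements of short-lived RNAs and directs their decay. It was at 202, 71.3 and 83.98 CPM at the low end and 5435, 5067 and 5612 CPM at the high end (log2 fold change 5.65 ± 0.22, edgeR adjusted p = 1.08e-10), which made it one of the most abundant RNAs of the group. Zc3h12a encodes regnase-1, an endonuclease for inflammatory RNAs, and went from 5.56, 6.24 and 3.88 to 152, 175 and 172 CPM (log2 fold change 5.05 ± 0.11, edgeR adjusted p = 3.87e-13). Btg2, an antiproliferative partner of the deadenylase complex, went from 215, 105 and 129 to 2605, 2381 and 2925 CPM (log2 fold change 4.21 ± 0.15, edgeR adjusted p = 3.54e-11). Ppp1r15a, the stress-induced phosphatase subunit that restores translation, had a log2 fold change of 4.92. Cdkn1a, the cell-cycle inhibitor p21, had one of 4.42, from 41.7 to 882 CPM. Gadd45a was the member without a call (log2 fold change -0.08, edgeR adjusted p = 0.349), while Gadd45b reached 4.75.

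Promoters of these genes were searched in RefSeq sequence of build GRCm38.p6, from 250 bases before a transcription start to 50 after, for the cyclic AMP response element TGACGTCA on both strands. Of the 64 genes called higher in the lists of early factors, feedback inhibitors and RNA decay, 51 had a promoter in the table, and 7 of the 51 (13.7%) held the element, against 549 of 27025 genes (2.03%) in all. The 3 stretches below lie before the start, are written 5′ to 3′ in the direction of the gene, carry the element in capitals, and show how it sits in genes with some of the largest differences of their lists.
Dusp1, chr17:26508583-26508640, minus strand: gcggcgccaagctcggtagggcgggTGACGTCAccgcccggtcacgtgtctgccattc
Btg2, chr1:134079289-134079346, minus strand: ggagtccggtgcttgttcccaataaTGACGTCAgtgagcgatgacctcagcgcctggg
Ppp1r15a, chr7:45526269-45526305, minus strand: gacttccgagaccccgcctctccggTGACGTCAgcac
In the other motifs searched, the same 51 genes held the EGR element GCGNGGGCG in 16 (31.4% against 6.27% of all genes), the CArG box of serum response factor in 4 (7.84% against 1.81%), the AP-1 element TGANTCA in 2 (3.92% against 8.97%) and the kappaB site, by its consensus, in 7 (13.7% against 5.14%). The EGR element is rich in G and C, and the base composition of the promoters was not matched. Promoters of 5 of the 7 score genes were in the table, and 1 of them, Fosb, held the EGR element, while Fos and Fosb held a kappaB site. None of the 5 held the cyclic AMP response element, the AP-1 element or the CArG box. A match is a description of the letters in this window.

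Inflammatory mediators and targets of NF-kappaB were the other large group. Of 29 listed genes, 28 were tested, 26 were higher and none was lower at this threshold, with a median log2 fold change of 2.40. Cxcl2 and Cxcl1, chemokines that attract neutrophils, had the largest differences of the list. Cxcl2 was at 6.103, 2.79 and 4.83 CPM at the low end and 989, 843 and 1209.9 CPM at the high end (log2 fold change 7.79 ± 0.12, edgeR adjusted p = 5.32e-14). Cxcl1 was at 9.37, 3.78 and 9.85 and 458, 526 and 665 CPM (log2 fold change 6.12 ± 0.14, edgeR adjusted p = 6.73e-13). In both genes the ends were separated in every library, with Cxcl1 folds of 48.8, 139 and 67.5. Nfkbiz, a nuclear inhibitor of the IkappaB family, went from 56.7, 27.9 and 34.3 to 1753, 1736 and 2162 CPM (log2 fold change 5.61 ± 0.17, edgeR adjusted p = 6.92e-12). Nfkbia, which encodes the IkappaB alpha that holds NF-kappaB in the cytoplasm, went from 221 to 4275 CPM on average, a log2 fold change of 4.28, and the feedback enzyme gene Tnfaip3 had one of 4.87.

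Adhesion molecules and secreted mediators were part of this group. Icam1, which binds leukocyte integrins, went from 144 to 3123 CPM, a log2 fold change of 4.48. Selp, the P-selectin gene, had a log2 fold change of 4.93, and Vcam1 one of 2.25 at low levels, from 0.829 to 4.17 CPM. Ptgs2, the inducible cyclooxygenase of prostaglandin synthesis, had 9, 5 and 6 UMIs at the low end and 426, 121 and 276 at the high end, or 45.95, 19.4 and 27.1 CPM (log2 fold change 5.36 ± 0.19, edgeR adjusted p = 2.62e-11). Library 1 had the highest Ptgs2 of the 3 at the high end. The chemokine gene Ccl2 had a log2 fold change of 3.12 and the cytokine gene Lif one of 4.64. Cxcl9, a T cell chemokine driven by interferon gamma, was less regular, with 7.41, 12.3 and 8.62 CPM at the low end and 10.4, 27.6 and 24.9 CPM at the high end (log2 fold change 1.15 ± 0.16, edgeR adjusted p = 6.93e-05). Its mean was highest in the middle quintile of the score, at 37.7 CPM, and with only 10% of the cells from each end its log2 fold change was -0.33 (edgeR adjusted p = 0.313). Tnfaip2 and Cxcl16 were not called, with log2 fold changes of 0.10 and 0.50 and edgeR adjusted p of 0.194 and 0.132.

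Promoters of 20 of the 26 higher genes of this list were in the RefSeq table, and 12 of the 20 (60.0%) held a kappaB site, searched by its consensus on both strands after the levels had been seen, against 1388 of 27025 genes (5.14%). The NF-kappaB list was drawn up from known targets, so a high share is part of how it was made. The same 20 promoters held the AP-1 element in 8 (40% against 8.97%), the cyclic AMP response element and the EGR element in 1 each, and the CArG box in none. The 3 stretches below lie before the start and show the site, in capitals, in the chemokines with the largest differences and in the gene of the inhibitor.
Cxcl1, chr5:90891149-90891208, plus strand: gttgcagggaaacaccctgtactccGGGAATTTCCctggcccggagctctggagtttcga
Cxcl2, chr5:90903777-90903836, plus strand: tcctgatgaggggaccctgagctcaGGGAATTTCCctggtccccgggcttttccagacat
Nfkbia, chr12:55492648-55492701, minus strand: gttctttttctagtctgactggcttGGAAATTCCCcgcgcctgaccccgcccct
Cxcl1 and Cxcl2 are neighbours on chromosome 5, and a script found the same letters, GGGAATTTCC, in both. The site of Nfkbia matched on the strand opposite to the gene.

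Targets of serum response factor and YAP, which report on actin and cell shape, were mostly higher. Of 17 tested, 13 were higher and 3 lower (median 1.45), against 20.6% and 16.1% of all genes. The lower count was thus near the share of all genes. With DESeq2 12 were higher and 1 lower, against 12.2% and 6%. Ccn1, a secreted matricellular protein, went from 106, 53.2 and 52.2 to 1026, 974 and 1119 CPM (log2 fold change 3.96 ± 0.16, edgeR adjusted p = 1.67e-10). Ccn2, the relative of Ccn1, had a log2 fold change of only 0.57. Rhob, an early-response GTPase gene, had one of 2.22, and the cytoplasmic actin genes Actg1 and Actb had 1.33 and 0.44. Actin-binding genes were on both sides. Vcl, the vinculin gene, was higher by 0.27 on the log2 scale. Tpm4, a tropomyosin, was lower, at 575, 539 and 603 CPM at the low end and 421, 438 and 472 CPM at the high end (log2 fold change -0.35 ± 0.06, edgeR adjusted p = 5.10e-04), and Flna, the filamin A gene, had a log2 fold change of -0.25. Tpm1 was highest at the low end of library 2 (log2 fold change -0.70), and DESeq2 did not call it (adjusted p = 0.104). Without library 2 the value was -0.39, and without cells that held mural RNA, described below, it was -0.28.

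Chaperones of the heat shock response were mostly higher, with 17 of 22 tested higher, 1 lower and a median of 0.53. Without TMM factors 11 were higher and 3 lower, and with DESeq2 12 and 0. Dnajb1, a cochaperone of HSP70, went from 40.98, 29.4 and 29.9 to 323, 306 and 489 CPM (log2 fold change 3.49 ± 0.14, edgeR adjusted p = 1.08e-10), and Hspb1, a small heat shock protein, from 343, 206 and 176 to 1482, 1574 and 1708 CPM (log2 fold change 2.79 ± 0.16, edgeR adjusted p = 5.71e-09). The inducible HSP70 genes Hspa1a and Hspa1b did not follow the score stepwise. Hspa1a was at 242, 86.2 and 113 CPM at the low end, at 656, 628 and 631 CPM in the middle quintile and at 501, 461 and 547 CPM at the high end (log2 fold change 1.90 ± 0.18, edgeR adjusted p = 1.93e-06). The middle quintile was thus above the high end in every library. Hspa1b had the same shape, at a mean of 142, 559.9, 585, 528 and 474 CPM from the lowest to the highest quintile. The pair is nearly identical in sequence, so the split of UMIs between them is uncertain. Their difference also depended on how many cells the ends held, with a log2 fold change for Hspa1a of 2.99 when 10% of cells were taken and 1.09 when 30% were. The constitutive Hspa8 had a log2 fold change of 1.33, Hsp90aa1 of 1.60 and Hsp90ab1 of 0.27. The collagen chaperone gene Serpinh1 was the lower member (log2 fold change -0.24 ± 0.06, edgeR adjusted p = 0.00642), and that call was lost without library 2 or library 3 (edgeR adjusted p = 0.0511 and 0.0572).

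**Figure D4:**
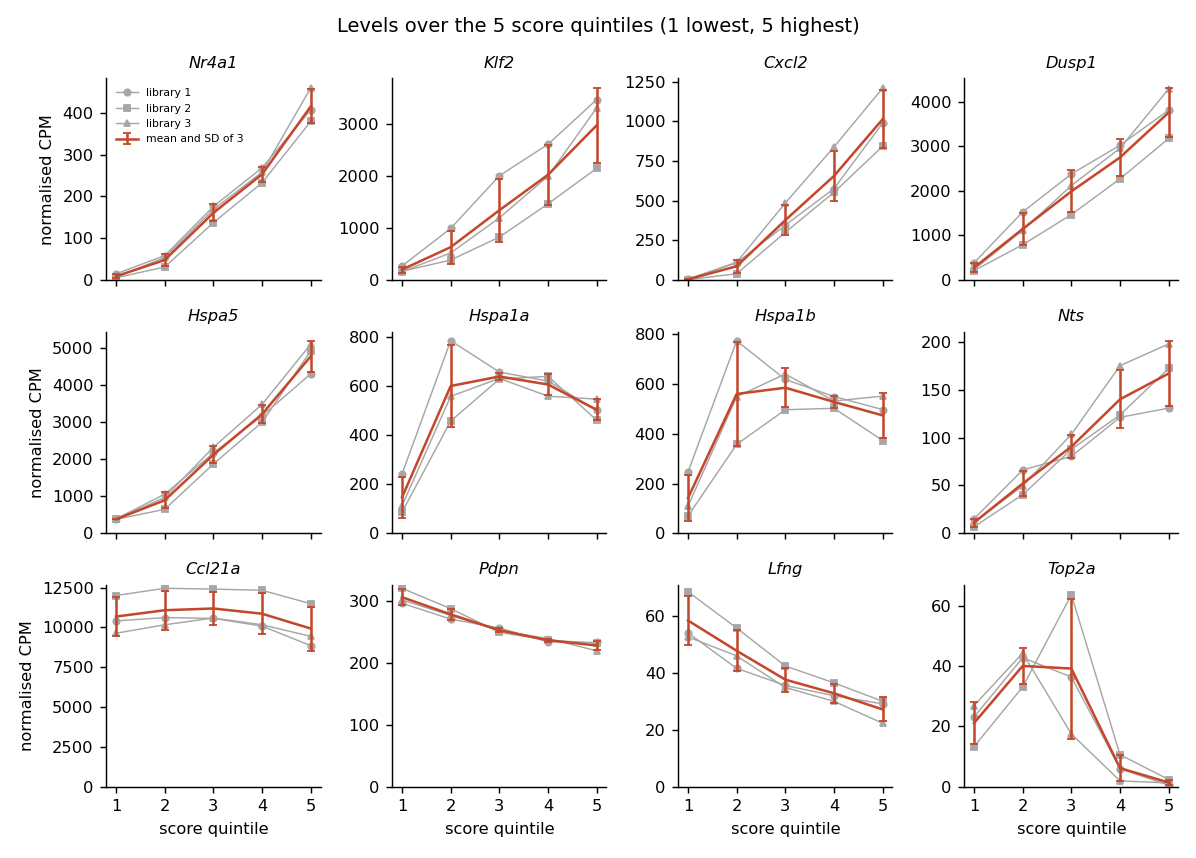
Normalised CPM (vertical axes from 0) of 12 genes over the 5 score quintiles (horizontal axis), each library in grey and the mean with SD over 3 libraries in red. Nr4a1, Klf2, Dusp1, Cxcl2, Hspa5 and Nts climb through every mean, Hspa1a and Hspa1b are highest in the middle, Ccl21a stays within its spread, Pdpn and Lfng decline, and Top2a falls away in the top 2 quintiles.

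Stress genes of the endoplasmic reticulum and of the integrated stress response did not move as 1 block, with 11 of 20 higher and 2 lower (median 0.50). The shares of all genes were 20.6% higher and 16.1% lower. Hspa5, which encodes the reticulum's HSP70 chaperone BiP (chromosome 2, 34771970 to 34777547, plus strand in GRCm38), went from 391, 379.7 and 382 to 4309, 4929.9 and 5109.7 CPM (log2 fold change 3.65 ± 0.08, edgeR adjusted p = 6.29e-13) and rose at each quintile. Its values at the low end differed little between libraries. Atf4, the transcription factor of the integrated stress response, went from 99.8, 86.4 and 84.5 to 669, 660.5 and 779 CPM (log2 fold change 2.98 ± 0.08, edgeR adjusted p = 3.84e-12), and Ddit3, the gene of its partner CHOP, had a log2 fold change of 2.71. Other genes of folding in the reticulum went different ways. Dnajb9, a cochaperone of BiP, was higher by 2.03 on the log2 scale and Manf by 0.56. The GRP94 gene Hsp90b1 had a log2 fold change of 0.14 (edgeR adjusted p = 0.115), Calr one of 0.18 (edgeR adjusted p = 0.072) and Pdia6 one of -0.12 (edgeR adjusted p = 0.201), and none of these 3 was called. Pdia4 and Creld2 were lower, with log2 fold changes of -0.27 and -0.40, although DESeq2 called neither (adjusted p = 0.0987 and 0.149). Among 13 tested genes of oxidative and metal stress, 8 were higher and 2 lower. Sqstm1, the autophagy receptor p62, went from 145, 147 and 139 to 448, 562 and 740.3 CPM (log2 fold change 2.02 ± 0.11, edgeR adjusted p = 3.39e-09). Hmox1, heme oxygenase 1, was not called (log2 fold change -0.07, edgeR adjusted p = 0.659).

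Interferon genes and antigen presentation differed by little. Of 20 tested interferon-response genes, 4 were higher and 5 lower, near or above the shares of all genes, with a median of 0.07, or -0.16 without TMM factors. Without TMM factors 3 were higher and 9 lower, against 10.8% and 43.5% of all genes. With DESeq2 2 were higher and 2 lower, against 12.2% and 6%. Without library 2, 2 of the 20 were lower, against 11.6% of all genes in that setting. Isg15, a ubiquitin-like protein, was the largest, from 289, 305 and 311 to 755, 1018 and 907 CPM (log2 fold change 1.57 ± 0.07, edgeR adjusted p = 5.67e-10), and Rsad2, the viperin gene, went from 123, 137 and 87.4 to 206, 191 and 157 CPM (log2 fold change 0.71 ± 0.07, edgeR adjusted p = 1.88e-06). Ifit1 and Ifi44, other interferon-induced genes, were lower, with log2 fold changes of -0.32 and -0.30. For antigen presentation 8 of 14 were higher and none lower, with a median of 0.20 that became -0.03 without TMM factors, where 3 were higher and 2 lower. Without library 3, 4 of the 14 were higher, against 17.8% of all genes in that setting. Cd74, whose product is the chaperone of MHC class II molecules, was at 60.1, 165 and 91.4 CPM at the low end and 89.97, 257 and 221 CPM at the high end (log2 fold change 0.87 ± 0.10, edgeR adjusted p = 1.61e-05). Levels differed between libraries as well, and without the library block Cd74 was not called (edgeR adjusted p = 0.13). The class II genes H2-Ab1 and H2-Aa had log2 fold changes of 0.45 and 0.40, and Cd274, the PD-L1 gene, had one of 0.48.

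Of 24 listed genes of lymphatic identity, 23 were tested, 1 was higher and 5 were lower, against 20.6% and 16.1% of all genes, with a median of -0.09. Without TMM factors the median was -0.32 and 17 of the 23 were lower, against 43.5% of all genes in that setting, and leaving out 1 library gave 3 to 8 lower. Ccl21a, the chemokine by which lymph vessels draw in dendritic cells and T cells, was at 10409.9, 12006 and 9637 CPM at the low end and 8857, 11491 and 9442 CPM at the high end (log2 fold change -0.09 ± 0.08, edgeR adjusted p = 0.416). Reln, a secreted glycoprotein of collecting vessels, was at 1998, 1945 and 2128 and 1974, 1855 and 1758 CPM (log2 fold change -0.10 ± 0.07, edgeR adjusted p = 0.307). Flt4, the VEGF-C receptor, had a log2 fold change of 0.11 (edgeR adjusted p = 0.194), and Nrp2, its coreceptor, of 0.01 (edgeR adjusted p = 0.9). Ccl21a and Reln were lower at the high end in each of the 3 libraries, and the ranges of their ends overlapped. Without library 1, Reln was called lower (log2 fold change -0.16, edgeR adjusted p = 0.039), and so was Itih5, a marker of a subset of the LEC (-0.20, edgeR adjusted p = 0.0219), whose levels were 181, 151 and 212 and 210.1, 151 and 164 CPM with all 3 libraries (log2 fold change -0.04 ± 0.09, edgeR adjusted p = 0.79). Without TMM factors Ccl21a and Reln were lower by 0.32 and 0.33 on the log2 scale (edgeR adjusted p = 2.73e-04 and 9.33e-04).

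The marker genes of the sort were lower. Pdpn, the podoplanin gene, was at 296, 320.4 and 302 CPM at the low end and 233, 232 and 219.5 CPM at the high end (log2 fold change -0.40 ± 0.06, edgeR adjusted p = 8.12e-05), and declined at each quintile in every library. Pecam1, the CD31 gene, was at 602, 605 and 613 and 510.5, 507 and 499 CPM (log2 fold change -0.24 ± 0.06, edgeR adjusted p = 0.00563), with edgeR adjusted p = 0.0948 and the same size of difference with library 2 left out. Prox1 and Lyve1, which were used to choose the LEC, were at 719, 689.8 and 724 and 4219.9, 3879 and 3683 CPM at the low end and 1067, 910.2 and 944 and 4615, 4804 and 4366 CPM at the high end, as a description. Clca3a1, a chloride channel accessory gene and LEC subset marker, was at 98.2, 81.8 and 61.2 CPM at the low end and 46.6, 63.4 and 47.95 CPM at the high end (log2 fold change -0.59 ± 0.11, edgeR adjusted p = 9.13e-04). When the ends were taken within 4 strata of cells with or without a UMI of Itih5 and of Clca3a1, its log2 fold change shrank to -0.17 (edgeR adjusted p = 0.0523), as the strata hold its detection fixed. Nr2f2, the COUP-TFII gene that acts with PROX1, had a log2 fold change of -0.22 and Thy1 one of -0.24. Foxp2, a transcription factor of lymph valves, was the higher member (log2 fold change 0.47 ± 0.11, edgeR adjusted p = 0.00388). It was not called with library 3 left out (0.23, edgeR adjusted p = 0.0639) or without TMM factors (0.23, edgeR adjusted p = 0.0803).

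Junction genes were split, with 3 of 16 tested higher and 4 lower (median -0.0075), against 20.6% and 16.1% of all genes. Without library 2 none was lower, where 11.6% of all genes were. Without TMM factors 10 were lower, where 43.5% of all genes were. Gja1, the connexin 43 gene, went from 301, 291 and 289 to 409.8, 462 and 378 CPM (log2 fold change 0.52 ± 0.06, edgeR adjusted p = 2.73e-05). Cdh5, VE-cadherin, was not called, with a log2 fold change of 0.07 and edgeR adjusted p = 0.369. The tight-junction gene Cldn5 had a log2 fold change of -0.21. Gja4, the connexin 37 gene, was lower at the high end (log2 fold change -0.37 ± 0.09, edgeR adjusted p = 0.00577), but was not called with library 2 left out (-0.22, edgeR adjusted p = 0.0566).

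Of 21 tested genes of Notch signalling and flow sensing, 7 were higher and 4 lower (median 0.07, or -0.17 without TMM factors), against 20.6% and 16.1% of all genes. Without TMM factors 3 were higher and 7 lower, against 10.8% and 43.5% of all genes. With DESeq2 4 were higher and 3 lower, against 12.2% and 6%. Nfatc1, a calcium-calcineurin factor of valve formation, went from 70.8, 59.8 and 62.6 to 242, 173 and 211 CPM (log2 fold change 1.72 ± 0.06, edgeR adjusted p = 4.94e-11). Dll4, a Notch ligand that lacteals use, went from 74.99, 65.9 and 74.9 to 186, 166 and 184 CPM (log2 fold change 1.33 ± 0.06, edgeR adjusted p = 2.05e-10), and the target gene Hey1 had a log2 fold change of 0.56. Both Nfatc1 and Dll4 rose at each quintile in every library. Lfng, a glycosyltransferase that modifies Notch receptors, went the other way, from 54.1, 68.5 and 52.6 to 29.1, 30.01 and 22.3 CPM (log2 fold change -1.08 ± 0.08, edgeR adjusted p = 1.49e-07), and declined at each quintile. The mechanosensor genes Pkd2 and Piezo2 had log2 fold changes of -0.44 and -0.27, while Piezo1 was not called (0.05, edgeR adjusted p = 0.587).

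Intestinal LEC secrete signals that act on neighbouring epithelial stem cells, among them R-spondin 3. Of 16 tested ligands and cytokines, 5 were higher and 4 lower (median 0.13), against 20.6% and 16.1% of all genes. Without TMM factors the median was -0.11, and 5 were higher and 7 lower, against 10.8% and 43.5% of all genes. Rspo3 was at 300.5, 335 and 332 CPM at the low end and 295, 328 and 320.3 CPM at the high end (log2 fold change -0.02 ± 0.06, edgeR adjusted p = 0.856). Wnt2 was at 174, 179 and 183 and 142, 149.9 and 148 CPM (log2 fold change -0.26 ± 0.05, edgeR adjusted p = 0.00171). The ends of Rspo3 overlapped and those of Wnt2 did not. Nts, the gene of the peptide neurotensin, had a larger difference than either, from 15.3, 6.898 and 11.6 to 131, 172 and 198 CPM (log2 fold change 3.85 ± 0.16, edgeR adjusted p = 2.08e-10), and rose at each quintile in every library. Pgf, placental growth factor, went from 65.8, 41.9 and 62.1 to 258, 220.2 and 301 CPM (log2 fold change 2.22 ± 0.08, edgeR adjusted p = 2.19e-11). Il33, an alarmin stored in the nucleus, was not called (log2 fold change -0.13, edgeR adjusted p = 0.0926). Bmp2 and Wnt4 were higher at low levels, from 1.62 to 7.91 and from 0.341 to 2.77 CPM on average. Grem1, a BMP antagonist that intestinal muscle and fibroblasts express, was lower, from 4.69 to 0.458 CPM, and had too few UMIs to be tested once the cells with mural RNA described below were left out.

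Of 18 tested lipid-handling genes, 3 were higher and 3 lower (median -0.01), shares near those of all genes. Without TMM factors 1 was higher and 11 lower, against 10.8% and 43.5% of all genes. With DESeq2 1 was higher and 0 lower, against 12.2% and 6%. The fatty acid carrier genes Cd36 and Fabp4 had log2 fold changes of -0.00 and 0.05 (edgeR adjusted p = 0.979 and 0.532). Of 20 tested matrix and guidance genes, 2 were higher and 4 lower (median -0.0031), against 20.6% and 16.1% of all genes, with 2 lower when library 2 was left out and 16 lower without TMM factors. Timp3, a metalloproteinase inhibitor among the abundant RNAs of these cells, went from 3342, 3112 and 2932 to 4076, 3922 and 3842 CPM (log2 fold change 0.36 ± 0.07, edgeR adjusted p = 0.00116). It was not called without library 2 (edgeR adjusted p = 0.0643) or without TMM factors (0.12, edgeR adjusted p = 0.0621). Lamb1, a laminin chain of the basement membrane, declined at each quintile, from 176, 168 and 173 to 113, 121 and 114 CPM (log2 fold change -0.56 ± 0.06, edgeR adjusted p = 3.74e-06). Tgfbi, a matrix protein and LEC subset marker, was at 41.2, 45.99 and 32.9 and 33.5, 49.9 and 38.4 CPM (log2 fold change 0.04 ± 0.09, edgeR adjusted p = 0.795), with a sign that changed under 10 of the other settings, -0.20 without TMM factors among them. It was called higher within depth bins (0.27, edgeR adjusted p = 0.018) and within the Itih5 and Clca3a1 strata (0.24, edgeR adjusted p = 0.0131).

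Of 19 tested genes of glycolysis and hypoxia, 6 were higher and 4 lower (median 0.15, or -0.09 without TMM factors), against 20.6% and 16.1% of all genes. Without library 1, without library 2 or with DESeq2, 2 were lower, against 15.3%, 11.6% and 6% of all genes. Without TMM factors 7 were lower, against 43.5% of all genes. Pfkfb3, the glycolytic activator of endothelial cells, went from 51.8, 55.2 and 55.9 to 120.4, 181 and 146 CPM (log2 fold change 1.45 ± 0.08, edgeR adjusted p = 3.74e-09). The glycolytic enzyme gene Pgam1 went from 73.8, 80.1 and 74.7 to 52.9, 59.1 and 60.7 CPM (log2 fold change -0.38 ± 0.06, edgeR adjusted p = 3.97e-04), and Vegfa had a log2 fold change of 1.32. Hk2, a hexokinase gene, and Slc2a1, the glucose transporter gene, were higher by 1.26 and 0.96 at low levels, up to means of 2.12 and 14.2 CPM. Among 28 nuclear genes of oxidative phosphorylation, 11 were lower and 1 higher (median -0.10), with Ndufa4, a subunit of cytochrome oxidase, from 158, 185 and 141 to 109, 119.7 and 100.4 CPM (log2 fold change -0.52 ± 0.06, edgeR adjusted p = 6.00e-06). Of 13 mitochondrial transcripts, 5 were lower and none higher. Of all genes, 16.1% were lower and 20.6% higher. Without library 2, the lower genes were 5 of 28 and 1 of 13, against 11.6% of all genes. Without TMM factors they were 24 of 28 and 12 of 13, against 43.5% of all genes. Of 87 tested ribosomal protein genes, 62 were higher and 3 lower, with a median of 0.23 that was -0.00030 without TMM factors. The direction of the family rested on the scaling, as 5 were then higher and 8 lower, and the count on the libraries, with 13 higher without library 2 and 21 without library 3. As shares of all UMIs, ribosomal genes made up 9.196%, 10.6% and 9.68% at the low end and 8.27%, 10.3% and 9.76% at the high end. Rpl22l1, a paralogue of Rpl22, stood out with a log2 fold change of 1.81, from 181, 192 and 202 to 565, 645 and 792 CPM.

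RNAs that remain in the nucleus can mark broken cells. Of 13 tested, 7 were higher and 2 lower (median 0.62), against 20.6% and 16.1% of all genes. Without TMM factors 7 were higher and 5 lower, against 10.8% and 43.5% of all genes. With DESeq2 7 were higher and 0 lower, against 12.2% and 6%. Malat1, the most abundant of them, was at 14320, 9867 and 10887 CPM at the low end and 16182, 9514 and 10412 CPM at the high end (log2 fold change 0.04 ± 0.08, edgeR adjusted p = 0.738), and its log2 fold change was -0.19 without TMM factors. Neat1, the scaffold of paraspeckles, went from 306, 229 and 245 to 1091, 624 and 861 CPM (log2 fold change 1.72 ± 0.08, edgeR adjusted p = 5.52e-10), and the splicing kinase gene Clk1 from 149.5, 98.05 and 106 to 477, 367 and 439 CPM (log2 fold change 1.89 ± 0.07, edgeR adjusted p = 6.95e-11). The splicing genes Ddx5 and Srsf5 had log2 fold changes of 1.30 and 1.19.

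Cell-cycle genes were lower at the high end, with 13 of 17 lower and 3 higher (median -2.24), and the RNA came from few cells. Top2a, the topoisomerase of dividing cells, was at 23.1, 13.3 and 26.9 CPM at the low end and 0.539, 2.41 and 1.28 CPM at the high end (log2 fold change -4.05 ± 0.29, edgeR adjusted p = 6.47e-08), and was highest in the 2nd or the middle quintile. Cenpf, a kinetochore gene outside the list, went from 50.8, 38.9 and 30.6 to 1.83, 0.321 and 1.47 CPM (log2 fold change -4.88 ± 0.20, edgeR adjusted p = 1.32e-10). Cells with at least 3 UMIs of 8 cycle genes (Mki67, Top2a, Ccnb1, Ccnb2, Ccna2, Cdk1, Birc5 and Cenpa) made up 2.33%, 1.69% and 1.26% of the low end and 0.718%, 0.112% and 0.189% of the high end. At 3000 UMIs per cell the shares were 2.03%, 1.501% and 0.835% against at most 0.115% in any library. Without these cells, a setting added after seeing the data, the list's median was -0.16 and Top2a had a log2 fold change of -0.06. These cells were picked by the RNA of list members, so part of that change is fixed by the setting. Of the 11 list members still tested, 4 were higher and 1 was lower, and Mki67 had a log2 fold change of 2.18. Pcna, which DNA repair also uses, was higher, from 63.8, 58.8 and 66.3 to 156, 149 and 189 CPM (log2 fold change 1.41 ± 0.06, edgeR adjusted p = 4.00e-10).

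Mural and smooth muscle markers showed a like pattern, with 7 of 7 tested lower (median -3.17). The 10 markers summed to 108, 561 and 25.2 CPM at the low end and to 11.7, 41.1 and 23.7 CPM at the high end, so that the ends of library 3 lay close together. DESeq2 called 4 of the 7 lower. Notch3 had no UMI at either end of any library. Only 4, 9 and 8 cells of the low end had at least 3 mural UMIs, and they held 95.05%, 94.3% and 21.1% of its 989, 3415 and 266 mural UMIs. Des, the muscle desmin gene, was at 22.3, 56.8 and 3.31 CPM at the low end and 0.755, 5.295 and 1.77 CPM at the high end (log2 fold change -3.29 ± 0.33, edgeR adjusted p = 2.90e-06). Without the deepest 5% of cells its log2 fold change was 0.0014. Without cells of at least 3 mural UMIs, a setting added after seeing the data, it was 0.11. None of the 5 markers still tested in that setting was lower. The cells it left out were picked by the RNA of these same markers, so part of that change is fixed by the setting. Actg2, the enteric actin gene, was lower by a log2 fold change of -3.15, but of -1.21 with library 2 left out (edgeR adjusted p = 0.0101).

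**Figure D5:**
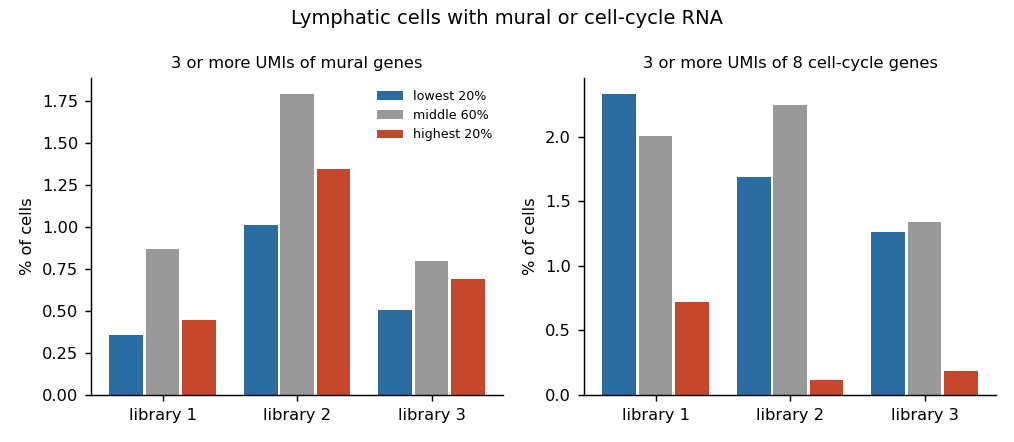
Percentage of cells (vertical axes from 0) with 3 or more UMIs of the mural markers (left) or of 8 cell-cycle genes (right), in the lowest 20%, middle 60% and highest 20% of the score of each library. Cycling cells are rarer at the high end than at the low end in all 3 libraries, while mural cells are not.

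Markers of other cell types were counted as well, beside 20.6% of all tested genes higher and 16.1% lower. The calls among these markers were few and near or under those shares. They describe single genes and are no result about a cell type. None of 4 tested fibroblast markers and none of 3 tested markers of T, innate lymphoid and B cells was called, with edgeR adjusted p of 0.322 for Jchain and 0.801 for Igha. Of 6 tested myeloid markers only Cd68 was called, from 0.635 to 7.13 CPM, while C1qa, C1qb and Tyrobp were not. The 12 myeloid markers summed to 2.72, 18.6 and 6.15 CPM at the low end and 8.85, 23.6 and 20.4 CPM at the high end. Of 12 tested epithelial markers the Paneth cell genes Defa24 and Lyz1 were lower, with Defa24 at 92.5, 174 and 50.5 CPM at the low end and 13.9, 122 and 31.4 CPM at the high end (log2 fold change -1.11 ± 0.26, edgeR adjusted p = 0.00399), and no other was called. The call of Defa24 was lost with DESeq2 (adjusted p = 0.189), without the library block (edgeR adjusted p = 0.321) and within depth bins (log2 fold change -0.70, edgeR adjusted p = 0.144), and DESeq2 called none of the 12. Their part in the results above was not tested. Of 5 tested blood endothelial markers, Rgcc was higher, from 1.24 to 14.7 CPM, Cd34 was lower, and Kdr, Plvap and Cd300lg were not called. Kdr, the VEGF receptor 2 gene that LEC also express, was abundant at both ends, with means of 1131 and 1145 CPM, and Cd300lg was at 127 and 126 CPM.

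Few of the genes lower at the high end declined with the score step by step. An ordered decline over the 5 quintiles in all 3 libraries was seen in 70 genes, against 407 with an ordered rise. Of the 1262 genes higher by at least 0.5, 378 rose in this way, and of the 604 lower by as much, 38 declined. The 12 largest declines among genes of at least 20 CPM at the higher end and 1 sign in all 3 libraries included 2 non-coding or uncharacterised genes. Gm4258, a predicted gene, was at 26.7, 24.8 and 26.6 CPM at the low end and 3.02, 2.41 and 3.34 CPM at the high end (log2 fold change -3.10 ± 0.14, edgeR adjusted p = 4.81e-10). Snhg20, a small nucleolar RNA host gene, was at 24.4, 24.8 and 21.8 and 2.91, 6.42 and 4.32 CPM (log2 fold change -2.41 ± 0.17, edgeR adjusted p = 6.17e-08). For both genes the level had dropped below that of the low end by the 2nd quintile, to means of 11.7 and 15.8 CPM, and the 3 libraries lay close together.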

How the data were processed

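Single cells of 3 libraries were profiled with 10x Chromium 3′ v3 chemistry, per the labels' protocols. Counts were made with Cell Ranger 6.1.2 on build mm10, per the submitters' processing notes, and the deposited matrices hold whole UMI counts of 32285 genes in 24541 barcodes. Their gene annotation was not given in the sources used here. Gene positions come from GENCODE vM21, which matched 32235 of the IDs.

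Barcodes had to hold 500 or more genes and no more than 15% mitochondrial UMIs. No doublet caller was run. Lymphatic cells were chosen by UMIs, scored, and the lowest and highest 20% per library were summed. The score genes were removed from totals. The sums were tested with edgeR 4.0.16 (filterByExpr, TMM, glmQLFit, glmQLFTest) in R 4.3.3, library as a block because both ends come from the same library, Benjamini-Hochberg threshold 0.05. Standard errors are the log2 fold change divided by the square root of F. DESeq2 1.42.0 was an alternative. The fit was tested on simulated counts. Intervals between libraries reflect 3 libraries only.

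Named genes were a set list, the 2 largest called differences per list and direction, and the 12 largest over all genes, each with the same sign in 3 libraries and at least 20 CPM at the higher end; other list members are named as examples. A few genes that the rule names are not reported here. The members, the gene lists and the rules were chosen with earlier results of these data known. The kappaB search and 3 settings (equal score limits, mural cells left out, cycling cells left out) were added after seeing the data. Motifs were searched in RefSeq promoters of GRCm38.p6.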

Additional observations from a re-analysis of the deposited data

How the results depend on the processing

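The counts of higher and lower genes stayed within 1.5 times the reported ones under 20 of the 23 settings tried. Without the replicate block, which paired the ends of a library, 1821 genes were higher and 1158 lower, and all of them were among the reported calls. With DESeq2, 1438 were higher and 710 lower, 345 of the lower ones by at least 0.5. Without TMM factors 1277 were higher and 5149 lower, or 826 and 1919 by at least 0.5. Leaving out 1 library gave 2067 to 2204 higher and 1395 to 1814 lower. Of the named genes, the sign reversed without TMM factors for Tgfbi (-0.20), Malat1 (-0.19), Abca1 (-0.0637), Efnb2 (-0.0478) and Uqcrh (-0.043). Rspo3 moved to 0.012 with 30% of cells, 0.0149 within depth bins, 0.0106 with equal score limits, and to 0.000871 when different UMIs gave score and sums. Itih5 moved to 0.13 without replicate 3, 0.0654 with 10% of cells, 0.0493 after thinning and 0.0356 without Fos in the score. Tgfbi moved to -0.00705 without replicate 2, -0.0782 without replicate 3, -0.0867 with 10% and -0.0522 with 30% of cells, -0.0726 with different UMIs, -0.15 with ranks, -0.12 without Fos, -0.0783 with equal limits and -0.0186 without cycling cells. Malat1 moved to -0.0467 without replicate 1 (0.0824 without replicate 3), -0.0388 after thinning and -0.00729 without the deepest cells. Cxcl9 moved to -0.33 with 10% of cells and Mki67 to 2.18 without cycling cells. Without the deepest cells and without mural cells, Des moved to 0.00138 and 0.11, Actg2 to 0.38 and 0.19, and Tpm2 to 0.0246 and 0.0805. Apart from the mural and cycling cells left out by construction, the cause was not tested. Depth limits genes with few UMIs at the low end, such as Egr4.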
